A study of Homo sapiens with 6 samples.

Results

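The basement membrane genes and the integrin receptors that bind them were compared between HCC1806-HM3 cells with and without knockdown of MSLN, the gene of the cell surface glycoprotein mesothelin. They were taken as 34 named genes, found by symbol among the 17860 genes of the deposited expression table. All 34 had a value in each of the 6 samples and all 34 passed the filter on low counts. They comprise 7 laminin chains, 5 basement membrane collagens, 4 linker proteins and proteoglycans, 6 integrin alpha subunits, 6 integrin beta subunits, 4 genes of the hemidesmosome and its partners, and 2 other matrix receptors. HCC1806 is a human triple-negative breast cancer line that the labels describe as breast squamous cell carcinoma. HM3 is its third-round liver-metastatic derivative, obtained by repeated implantation in the mammary fat pad of nude mice and culture of the cells that grew in the liver. Both groups had been infected with a lentivirus carrying a neomycin resistance gene and selected with G418. The 3 shNC samples carried a control shRNA and the 3 shMSLN samples an shRNA against MSLN, and all were grown in the same serum-containing medium. The study lists more than 1 MSLN shRNA and does not name the one in these cells, and nothing states whether the 3 shMSLN samples share one. The question was how the expression of matrix and adhesion genes differed when MSLN was reduced in these liver-tropic cells.

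Basement membranes are thin sheets of extracellular matrix under epithelia. Laminins are cross-shaped trimers of an alpha, a beta and a gamma chain that assemble into 1 network, type IV collagen forms another, and nidogens and heparan sulfate proteoglycans such as perlecan and agrin link them. Cells hold this sheet through integrins, which are pairs of an alpha and a beta subunit, and through dystroglycan. In squamous and basal breast epithelium, integrin alpha6beta4 binds a laminin that holds the LAMA3 and LAMB3 chains and is tied by plectin and dystonin to keratin filaments, in a junction called the hemidesmosome.

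Values are given as CPM, counts relative to the TMM-scaled library size, for comparisons of a gene between samples, and as TPM, which also divides by gene length, for comparisons of levels between genes. A gene was called higher or lower where the adjusted p of edgeR's quasi-likelihood test, corrected over all 14552 tested genes by the Benjamini-Hochberg method, was below 0.05. Fold changes are on the log2 scale, shMSLN over shNC, with the standard error (SE) of the fit. The totals per sample were 17507837 to 18512135 estimated counts. MSLN itself was measured at 226 to 231 CPM in the shNC samples and 35.4 to 37.1 CPM in the shMSLN samples. Replicates were numbered in the labels, but nothing states that they came from separate cultures, so p-values measure the spread between these samples, which may be technical. The deposited values of shMSLN replicates 2 and 3 differ in form from the others, with whole numbers for 47.7% of genes over 100 counts in each, against 3.36% to 7.02% in the other 4 samples. Of the 34 genes, 24 had whole numbers in both of these samples and 0 in shMSLN replicate 1. Among basal and squamous markers, KRT5 was at 2270 ± 170 CPM and TP63 at 396 ± 20.8 CPM in the shNC samples (SD, n = 3), while KRT14 was at 3.52 ± 0.132 CPM.

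Of the 34 genes, 13 were higher, 7 were lower and 14 were not called in shMSLN cells. The 20 called genes are 58.8% of the 34, and over all tested genes 34.6% were called, 16.6% as higher and 18.0% as lower. High counts make small differences easier to call. Among tested genes with a mean of at least 100 CPM, 50.7% were called, against 16 of the 27 basement membrane and integrin genes at that level, or 59.3%. The 6 samples split without overlap of the groups for 25 of the 34 genes, against 46.2% of all tested genes. The changes were small: among called genes the median size was 0.252 on the log2 scale, against 0.287 for all called genes. The higher genes were mainly ligands, 6 laminin chains, 3 type IV collagen chains and agrin, together with ITGA6, ITGB1 and DST. The lower genes were mainly receptors, ITGA2, ITGA5, ITGAV, ITGB5, ITGB8 and CD44, together with the linker NID2.

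**Figure D1:**
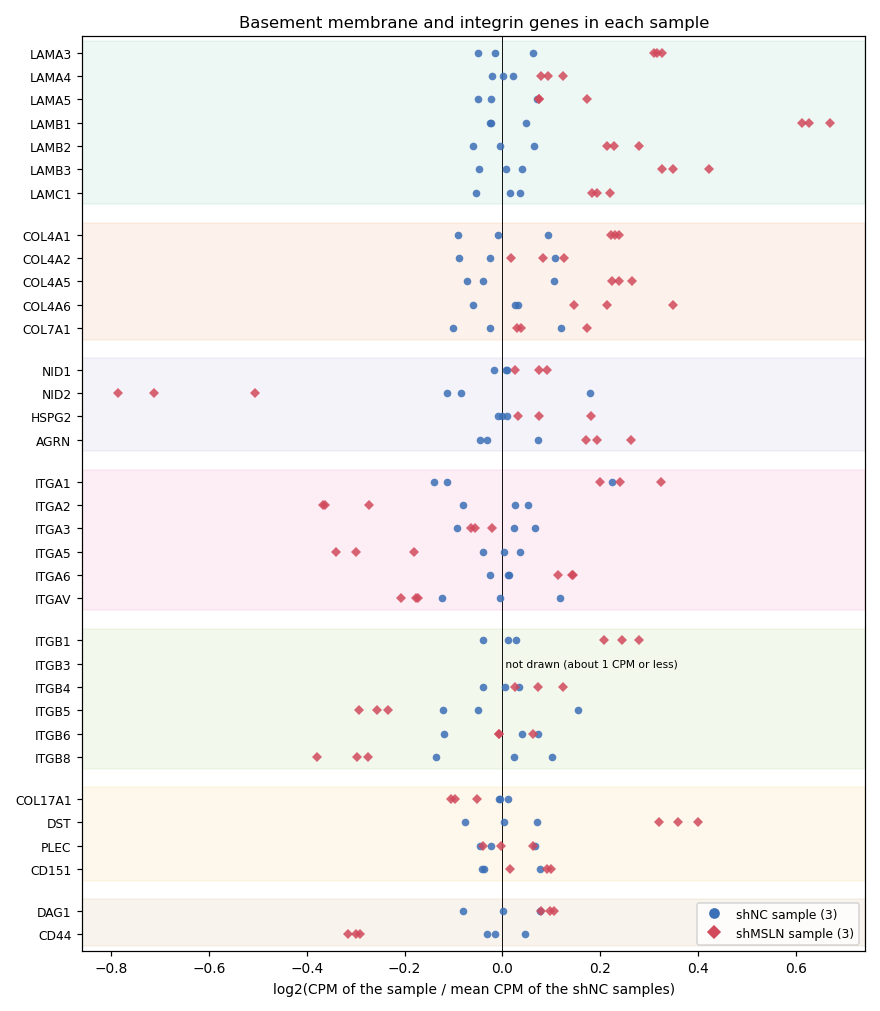
Level of each gene in each sample, as log2 of the CPM over the mean CPM of the 3 shNC samples, with shNC samples as circles and shMSLN samples as diamonds and the classes shaded. The laminin diamonds lie to the right of the circles in all 7 rows, while those of NID2, ITGA2, ITGA5, ITGAV, ITGB5, ITGB8 and CD44 lie to the left. ITGB3, at about 1 CPM or less, is not drawn.

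In level per length, the receptors and linkers ranged over more than the laminins did. CD44, a receptor for hyaluronan, had the highest TPM of the 34 genes in shNC cells at 830 ± 10.8 (SD, n = 3), followed by AGRN at 385 ± 14.4 and LAMB3 at 291 ± 3.11 TPM. The next were CD151 at 260 ± 9.73, ITGB4 at 240 ± 1.57 and ITGB1 at 225 ± 9.86 TPM. The laminin-binding integrins were therefore well represented, with ITGA6 at 156 ± 5.49 and ITGA3 at 129 ± 4.60 TPM. At the other end, ITGB3 was at 0.207 ± 0.121 TPM and ITGA1 at 0.933 ± 0.118 TPM, followed by NID2 at 9.43 ± 0.956 TPM. The order of levels cannot separate splice forms, since the table gives 1 value per gene and LAMA3, ITGA6, DST and CD44 each have several.

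**Figure D2:**
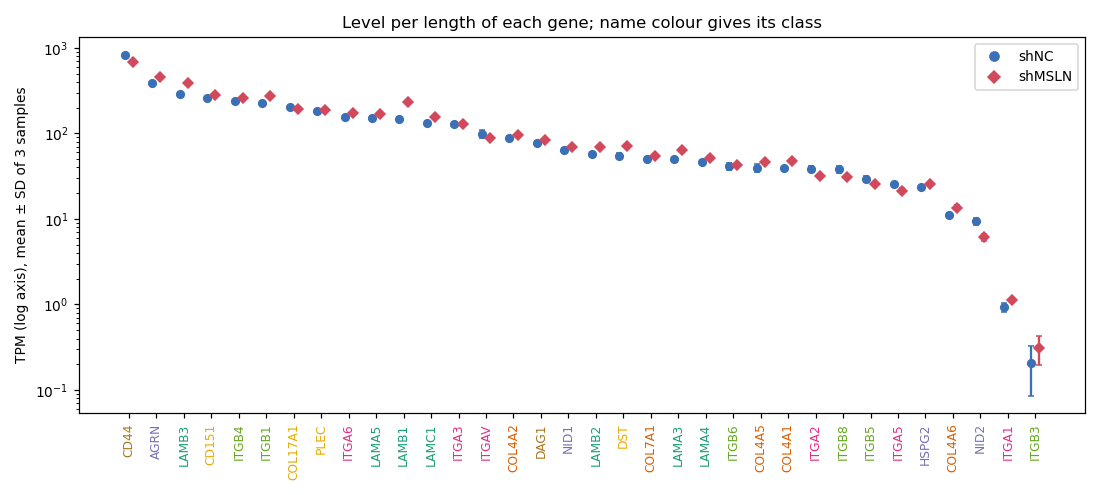
TPM of each gene on a log axis, as the mean of 3 samples with the SD as error bar, in shNC (circles) and shMSLN (diamonds), ordered by the shNC level, with the colour of the name giving the class. Levels run from 830 TPM for CD44 to 0.207 TPM for ITGB3, and in this plot the differences between groups are small beside those between genes.

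Laminin chains were the class with the most calls in 1 direction. Of 7 chains, 6 were higher, 0 were lower and 1 was not called, and the shMSLN samples lay above the shNC samples for all 7. The median log2 fold change was 0.241, against 0.00186 for all tested genes. LAMB1, the beta chain of laminins found in many basement membranes, changed most. It was at 375, 395 and 375 CPM in shNC replicates 1 to 3 and at 606, 583 and 589 CPM in shMSLN replicates 1 to 3. The gap between the groups was many times the spread within either. The log2 fold change was 0.64 (SE 0.036, adjusted p = 7.79e-09, edgeR), which is a 1.55-fold rise. The gene (chromosome 7, 107923799 to 108003255, reverse strand, GRCh38) shares 70 exon bases with DLD on the other strand, and DLD was lower in shMSLN cells, with a log2 fold change of -0.17.

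The alpha and beta chains of the hemidesmosomal laminin, LAMA3 and LAMB3, rose. LAMA3 was at 135, 125 and 128 CPM in the shNC samples and 162, 161 and 160 CPM in the shMSLN samples. Its log2 fold change was 0.32 (SE 0.040, adjusted p = 2.53e-05, edgeR). LAMB3 was at 546, 514 and 534 CPM in the shNC samples and 712, 676 and 666 CPM in the shMSLN samples, a log2 fold change of 0.37 (SE 0.037, adjusted p = 3.33e-06, edgeR). Neither gene had a shMSLN sample inside the shNC range.

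LAMB2, the beta chain of laminins at the neuromuscular junction and kidney glomerulus, was at 142, 155 and 147 CPM in the shNC samples and at 180, 173 and 172 CPM in the shMSLN samples. It rose by 0.24 on the log2 scale (SE 0.041, adjusted p = 0.000412, edgeR). LAMC1, the gamma chain of most laminins, was at 472, 495 and 502 CPM in the shNC samples and 560, 556 and 570 CPM in the shMSLN samples, a log2 fold change of 0.20 (SE 0.035, adjusted p = 0.000515, edgeR). The groups of both genes were separate. The level of LAMB1 per length exceeded that of LAMB2, and the TPM ratio of LAMB1 to LAMB2 was 2.54 to 2.62 in the shNC samples and 3.35 to 3.44 in the shMSLN samples, with no overlap. LAMA5, the alpha chain of the most widespread epithelial laminins, was at 836, 783 and 768 CPM in the shNC samples and 897, 838 and 838 CPM in the shMSLN samples. Its lowest shMSLN sample lay just above the highest shNC sample, and its call was the least firm of the 20 (log2 fold change 0.11, SE 0.040, adjusted p = 0.0485, edgeR). It was lost in 8 of the 18 other settings tried, with an adjusted p of up to 0.216 without shMSLN replicate 1. LAMA4, an alpha chain of vascular and muscle laminins, was at 126 to 130 CPM in the shNC samples and 135 to 139 CPM in the shMSLN samples and was not called (log2 fold change 0.10, adjusted p = 0.0563). LAMA4 was called higher in 5 of the 11 other settings that kept all samples, and in 2 of the 6 that left 1 out. A fit with the replicate number as a block was among the 5 (0.10, adjusted p = 0.0346, edgeR).

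LAMA3 and LAMB3 were among the 4 of the 28 genes with a RefSeq promoter window that held the AP-1 motif TGACTCA or its reverse complement TGAGTCA, the others being DST and ITGA5. A window covers 250 bases before to 50 bases after an annotated start (GRCh38.p14), and 4.95% of all 35116 windows held this motif. That share is per window, whereas the 4 of 28 are genes with the motif in any of their windows. Both strands were searched, and a gene with several annotated starts has more windows and so more chance of a match. LAMA3, LAMB3 and DST rose in shMSLN cells and ITGA5 fell. The windows of the 2 laminin genes that hold the motif are shown because both chains belong to 1 trimer and both rose. Capitals mark TGACTCA or TGAGTCA, the GC box GGGCGG or CCGCCC, and CCAAT or its complement ATTGG. The LAMA3 window lies at chr18:23872770-23873069 on the forward strand, and the LAMB3 window at chr1:209651325-209651624 on the reverse strand. Both are at internal starts within the gene. The windows at the LAMB3 starts further upstream, 209652425 and 209652329, held 0 AP-1 motifs. Each window shown is written 5′ to 3′ on the strand of its gene.
LAMA3: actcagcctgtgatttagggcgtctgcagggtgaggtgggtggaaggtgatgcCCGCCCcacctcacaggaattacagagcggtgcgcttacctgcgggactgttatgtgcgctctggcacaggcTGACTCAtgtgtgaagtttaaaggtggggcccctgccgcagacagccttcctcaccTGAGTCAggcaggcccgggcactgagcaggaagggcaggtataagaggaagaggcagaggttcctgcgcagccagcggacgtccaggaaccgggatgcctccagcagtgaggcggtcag
LAMB3: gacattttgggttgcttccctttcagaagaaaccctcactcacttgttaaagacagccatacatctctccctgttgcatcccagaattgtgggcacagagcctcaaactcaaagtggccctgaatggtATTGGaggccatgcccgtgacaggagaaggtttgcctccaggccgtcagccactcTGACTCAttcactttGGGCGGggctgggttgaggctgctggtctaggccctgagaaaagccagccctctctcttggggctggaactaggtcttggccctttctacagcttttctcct
The LAMA3 window held the AP-1 motif at 2 places and the LAMB3 window at 1. These are matches of letters and were not tested for binding.

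Of the 5 basement membrane collagens, 3 were called higher, COL4A1, COL4A5 and COL4A6, and 0 lower, with a class median of 0.23. COL4A2 and COL7A1 were not called. COL4A1 was at 126, 111 and 117 CPM in the shNC samples and at 139, 137 and 138 CPM in the shMSLN samples. Its groups did not overlap, and the log2 fold change was 0.23 (SE 0.046, adjusted p = 0.00138, edgeR). COL4A2, whose chain joins COL4A1 chains in the most common type IV collagen trimer, was at 283, 247 and 259 CPM in the shNC samples and 287, 279 and 266 CPM in the shMSLN samples. Here the groups overlapped and the gene was not called (log2 fold change 0.08, 95% interval -0.02 to 0.17, adjusted p = 0.241). Without shNC replicate 1, the highest of the shNC samples, it was called at a log2 fold change of 0.13 (adjusted p = 0.00945, edgeR). The TPM ratio of COL4A1 to COL4A2 was 0.438 to 0.450 in the shNC samples and 0.479 to 0.512 in the shMSLN samples.

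COL4A5 was at 103, 116 and 105 CPM in the shNC samples and 126, 127 and 130 CPM in the shMSLN samples (log2 fold change 0.24, SE 0.047, adjusted p = 0.00113, edgeR). COL4A6 was at 33.9, 33.8 and 31.8 CPM in the shNC samples and at 42.3, 38.5 and 36.7 CPM in the shMSLN samples (log2 fold change 0.24, SE 0.062, adjusted p = 0.00757, edgeR). The shMSLN samples of both genes lay above all shNC samples, and the TPM ratio of COL4A6 to COL4A5 overlapped between groups, at 0.262 to 0.302 and 0.268 to 0.313. COL7A1, the anchoring fibril collagen below squamous epithelia, was at 200 to 233 CPM in the shNC samples and 219 to 242 CPM in the shMSLN samples and was not called (adjusted p = 0.261, 95% interval of the log2 fold change -0.02 to 0.19).

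These 4 type IV collagen genes lie as 2 head-to-head pairs that are read away from each other. The annotated starts of COL4A1 (reverse strand) and COL4A2 (forward strand) on chromosome 13 are 127 bases apart and their windows share 226 bases. On chromosome X, the COL4A5 start (forward) and the COL4A6 start at 108439458 (reverse) are 380 bases apart, and their windows share 121 bases. A further annotated start of COL4A6, at 108438422, has a window that does not overlap that of COL4A5. The COL4A1 window at chr13:110307108-110307407, on the reverse strand, and the COL4A5 window at chrX:108439588-108439887, on the forward strand, are shown because each overlaps a window of the partner gene. Capitals mark the GC box and the CCAAT motif as above.
COL4A1: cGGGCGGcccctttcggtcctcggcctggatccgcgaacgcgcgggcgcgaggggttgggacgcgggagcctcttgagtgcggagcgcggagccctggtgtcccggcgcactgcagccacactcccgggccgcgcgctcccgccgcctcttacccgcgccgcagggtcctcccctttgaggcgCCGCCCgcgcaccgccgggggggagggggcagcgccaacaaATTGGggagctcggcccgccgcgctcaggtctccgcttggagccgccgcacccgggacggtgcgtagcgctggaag
COL4A5: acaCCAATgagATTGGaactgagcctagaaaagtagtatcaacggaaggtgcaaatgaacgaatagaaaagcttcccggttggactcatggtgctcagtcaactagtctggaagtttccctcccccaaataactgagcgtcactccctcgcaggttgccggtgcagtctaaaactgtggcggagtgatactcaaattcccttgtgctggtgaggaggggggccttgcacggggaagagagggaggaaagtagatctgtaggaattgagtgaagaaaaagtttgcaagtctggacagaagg
The COL4A1 window held 2 GC boxes and 1 CCAAT motif and had a GC content of 76.7%, whereas the COL4A5 window held 0 GC boxes and 2 CCAAT motifs at a GC content of 49.3%. Over all windows, 45.0% held the GC box and 34.6% the CCAAT motif. Of the 28 genes, 22 and 12 held them in any of their windows. In the pair on chromosome X both genes were called higher, and in the pair on chromosome 13 only COL4A1 was.

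Linkers and proteoglycans moved in both directions, with 1 higher, 1 lower and 2 not called. AGRN (chromosome 1, 1020123 to 1056118, forward strand) encodes agrin, a heparan sulfate proteoglycan that binds laminins and dystroglycan. It was at 1370, 1275 and 1261 CPM in the shNC samples and 1561, 1489 and 1466 CPM in the shMSLN samples. No shMSLN sample fell within the shNC range, and the log2 fold change was 0.21 (SE 0.038, adjusted p = 0.000655, edgeR). NID2 encodes nidogen-2, which bridges laminin and type IV collagen. It was at 20.03, 19.6 and 24.0 CPM in the shNC samples and at 14.9, 12.96 and 12.3 CPM in the shMSLN samples. All shMSLN samples lay below all shNC samples, and the log2 fold change of -0.66 (SE 0.095, adjusted p = 8.93e-05, edgeR) was the largest in size among the called genes. NID2 (chromosome 14, 52004803 to 52069228, reverse strand) shares 1915 exon bases with RTRAF on the other strand, and reads from the 2 genes cannot be told apart where the counting does not use strand, which was not stated. RTRAF was not called, at 81.4 ± 3.77 CPM in shNC and 77.1 ± 0.152 CPM in shMSLN (SD, n = 3 each). Besides NID2 and LAMB1, the overlaps of exons with other genes of the table were HSPG2 with LDLRAD2 (2121 bases), ITGA1 with PELO (475), CD151 with POLR2L (257) and LAMA5 with ADRM1 (244).

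The related nidogen NID1 had the higher level per length, at 64.5 ± 0.820 TPM against 9.43 ± 0.956 TPM for NID2 in shNC cells. NID1 was at 170 to 173 CPM in the shNC samples and 175 to 183 CPM in the shMSLN samples and was not called (log2 fold change 0.06, 95% interval -0.01 to 0.14, adjusted p = 0.199). HSPG2, the gene of perlecan, was at 155 to 157 CPM in the shNC samples and 159 to 177 CPM in the shMSLN samples and was not called (log2 fold change 0.10, adjusted p = 0.0888). HSPG2 was called higher in 2 of the 11 other settings that kept all samples, upper-quartile scaling and the replicate block. The block gave 0.10 (adjusted p = 0.0445, edgeR).

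**Figure D3:**
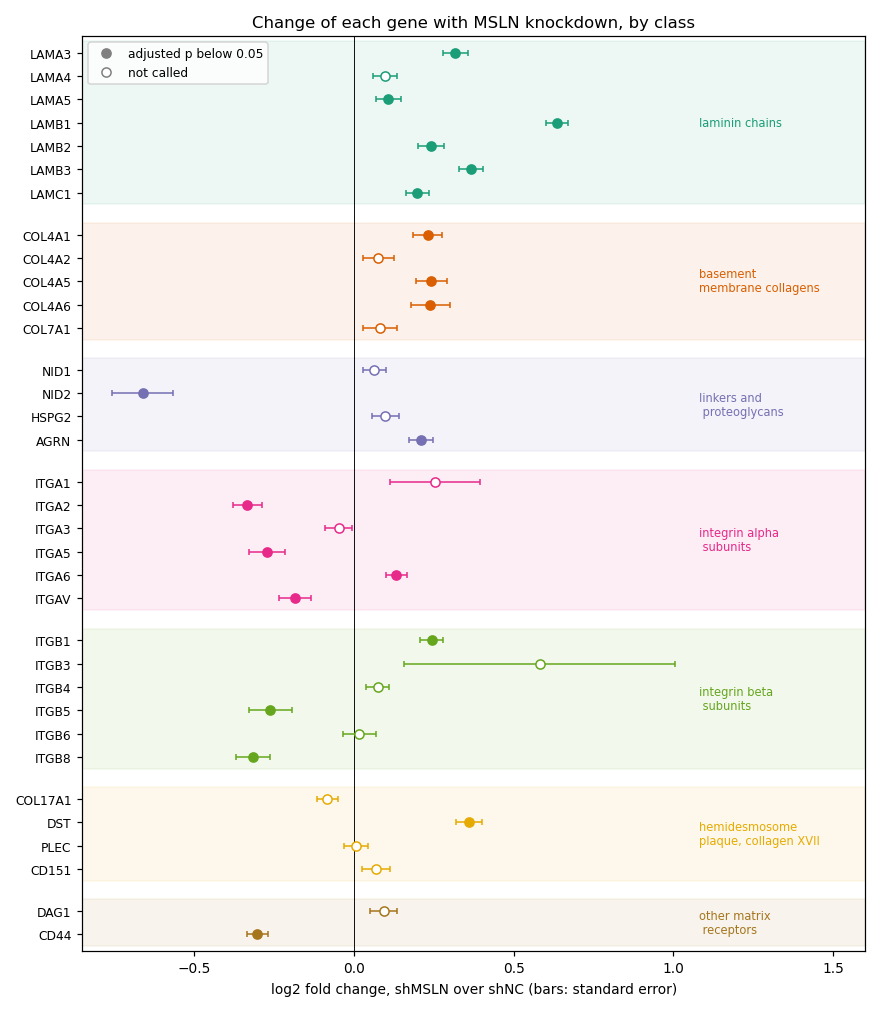
Log2 fold change of each gene, shMSLN over shNC, with its standard error as the bar and the classes shaded. Filled points have an adjusted p below 0.05 and open points do not. Laminin chains run from 0.10 to 0.64, integrin alpha subunits from -0.33 to 0.26, and the widest bar is that of ITGB3.

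Among the integrin alpha subunits, 1 was higher, 3 were lower and 2 were not called, with a median log2 fold change of -0.12. ITGA6, the laminin-binding subunit that pairs with beta1 or beta4, was the one that rose. It was at 382, 392 and 392 CPM in the shNC samples and 420, 429 and 429 CPM in the shMSLN samples, and the groups did not overlap (log2 fold change 0.13, SE 0.033, adjusted p = 0.00634, edgeR). ITGA2 (chromosome 5, 52989326 to 53094779, forward strand), the collagen-binding subunit of alpha2beta1, fell. It was at 133, 143 and 146 CPM in the shNC samples and 109, 109 and 116 CPM in the shMSLN samples. The log2 fold change was -0.33 (SE 0.045, adjusted p = 5.25e-05, edgeR).

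ITGA5, the subunit of the main fibronectin receptor, was at 45.6, 44.6 and 43.2 CPM in the shNC samples and at 36.1, 39.2 and 35.1 CPM in the shMSLN samples. It fell by 0.27 on the log2 scale (SE 0.056, adjusted p = 0.00163, edgeR). ITGAV, the alpha subunit shared by integrins that bind vitronectin and latent TGF-beta, was at 288, 340 and 313 CPM in the shNC samples and 272, 278 and 278 CPM in the shMSLN samples. For both genes the groups did not overlap, but the shNC samples of ITGAV were spread more widely than its shMSLN samples. The log2 fold change of ITGAV was -0.18 (SE 0.050, adjusted p = 0.00957, edgeR), and -0.12 without shNC replicate 2 (adjusted p = 0.0274). On log2(TPM + 1) with limma, ITGAV was not called (adjusted p = 0.129). ITGA3, another laminin-binding subunit, was at 270 to 302 CPM in the shNC samples and 276 to 284 CPM in the shMSLN samples, with overlap and no call (95% interval of the log2 fold change -0.13 to 0.04, adjusted p = 0.414). ITGA1, a collagen-binding subunit at 4.21 to 5.81 CPM in the 6 samples, was not called either (adjusted p = 0.179).

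Of the 6 integrin beta subunits, 1 was higher, 2 were lower and 3 were not called. ITGB1 (chromosome 10, 32900319 to 33005792, reverse strand), the partner of the largest number of alpha subunits, was at 375, 393 and 388 CPM in the shNC samples and 445, 456 and 467 CPM in the shMSLN samples. Every shMSLN sample was above every shNC sample, and the log2 fold change was 0.24 (SE 0.036, adjusted p = 9.87e-05, edgeR). ITGB8, which pairs with alphaV to bind latent TGF-beta, was at 134, 157 and 149 CPM in the shNC samples and 113, 119 and 121 CPM in the shMSLN samples (log2 fold change -0.32, SE 0.054, adjusted p = 0.000409, edgeR). ITGB5, the beta subunit of a vitronectin receptor, was at 48.9, 40.4 and 42.5 CPM in the shNC samples and 36.8, 37.4 and 35.9 CPM in the shMSLN samples (log2 fold change -0.26, SE 0.067, adjusted p = 0.00713, edgeR). Of the subunits that pair with alphaV, ITGB5 and ITGB8 thus fell, as ITGAV did, whereas ITGB1, the partner with the highest TPM, rose. ITGB6, a further partner, was at 78.6 to 89.8 CPM and 84.9 to 89.2 CPM in the groups and was not called (95% interval of the log2 fold change -0.08 to 0.12, adjusted p = 0.831). ITGB3, also a partner of alphaV, was at 1.02 CPM or less in every sample, which is too few reads to show a difference of moderate size (95% interval -0.25 to 1.41).

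ITGB4, the hemidesmosomal beta subunit, was at 628, 597 and 616 CPM in the shNC samples and 669, 646 and 624 CPM in the shMSLN samples, with overlap and no call (log2 fold change 0.07, adjusted p = 0.128). ITGB4 was called higher in 2 of the 11 other settings that kept all samples, and in 1 of the 6 that left 1 out. The TPM ratio of ITGB4 to ITGB1 was 1.02 to 1.12 in the shNC samples and 0.892 to 1.0 in the shMSLN samples. The 2 subunits were thus at nearly equal level per length, and the ratio was higher in each shNC sample than in each shMSLN sample.

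Of the 4 genes classed with the hemidesmosome, apart from its laminin and integrin subunits, 3 were not called and DST was higher. It encodes dystonin, whose epithelial form BPAG1e is a plaque protein and whose other forms link actin and microtubules. DST (chromosome 6, 56457987 to 56954628, reverse strand) was at 312, 346 and 330 CPM in the shNC samples and 411, 423 and 435 CPM in the shMSLN samples, well apart from each other (log2 fold change 0.36, SE 0.041, adjusted p = 1.04e-05, edgeR). The counts do not separate its forms. PLEC, the gene of the plaque protein plectin, was at 1097 to 1186 CPM in the shNC samples and 1102 to 1183 CPM in the shMSLN samples, so the groups overlapped almost fully (95% interval of the log2 fold change -0.07 to 0.08, adjusted p = 0.906). CD151, a tetraspanin that associates with laminin-binding integrins, was not called (95% interval -0.01 to 0.15, adjusted p = 0.229). COL17A1, the transmembrane collagen of the hemidesmosome, was at 521, 527 and 521 CPM in the shNC samples and 505, 487 and 489 CPM in the shMSLN samples. The shMSLN samples were all lower, but the gene was not called (log2 fold change -0.08, SE 0.033, adjusted p = 0.0625, edgeR). The fit with the replicate block called COL17A1 lower (-0.08, adjusted p = 0.0397, edgeR).

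CD44 (chromosome 11, 35138870 to 35232402, forward strand), the most abundant of the 34 genes, was at 1684, 1666 and 1757 CPM in the shNC samples and 1392, 1367 and 1384 CPM in the shMSLN samples. It fell by 0.30 on the log2 scale (SE 0.032, adjusted p = 4.85e-06, edgeR), to a level 0.811 times that of shNC, with a gap between the groups larger than the spread within either. In TPM it went from 830 ± 10.8 to 687 ± 8.21 (SD, n = 3 each) and was the highest of the 34 genes in both groups. DAG1 encodes dystroglycan, a receptor for the globular ends of laminin alpha chains, agrin and perlecan. It was at 181 to 202 CPM in the shNC samples and 203 to 207 CPM in the shMSLN samples. The gene was not called (log2 fold change 0.09, adjusted p = 0.101, edgeR). In 2 of the 11 other settings that kept all samples, and in 1 of the 6 that left 1 out, DAG1 was called higher.

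The remaining genes of the pathway, 127 in 7 lists, gave 115 tested genes with 31 higher and 29 lower. These are 52.2% called, against 34.6% of all tested genes and 50.7% of those with a mean of at least 100 CPM. By list the share called was 85.7% for other basement membrane components, 63.6% for matrix ligands of integrins, 48.3% for adaptors and kinases, 50% for each of 3 lists and 23.1% for the other laminin and integrin chains. Other basement membrane components leaned toward higher levels as the laminins did, with 9 of 14 tested genes higher, 3 lower and a median log2 fold change of 0.535. FRAS1, a matrix protein at the base of developing epithelia, rose from 9.80 ± 1.02 to 25.2 ± 1.04 CPM (SD, n = 3 each, log2 fold change 1.36), and MATN2, a matrilin, from 7.37 ± 1.43 to 16.7 ± 0.569 CPM (1.18). TINAGL1, a laminin- and integrin-binding matrix protein, fell from 273 ± 13.4 to 182 ± 5.33 CPM (log2 fold change -0.58), and LAD1, the gene of the anchoring filament protein ladinin, from 100 ± 6.58 to 83.2 ± 3.20 CPM (-0.27). The other laminin and integrin chains gave 2 higher and 1 lower of 13 tested, among them LAMB4, which rose from 30.0 ± 3.76 to 56.3 ± 1.40 CPM (log2 fold change 0.91). Of 11 tested matrix ligands of integrins, 6 were higher and 1 lower. SPP1, the gene of osteopontin, rose from 3.17 ± 0.839 to 8.80 ± 0.543 CPM, while THBS1, thrombospondin-1, fell from 466 ± 31.3 to 377 ± 5.40 CPM (log2 fold change -0.31).

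Inside the cell, the adaptors and kinases that link integrins to actin had 5 higher and 9 lower genes of 29 tested, with a median log2 fold change of -0.088. VCL, vinculin, fell from 159 ± 6.07 to 121 ± 1.94 CPM (SD, n = 3 each, log2 fold change -0.40), and TNS1, tensin-1, from 16.5 ± 0.723 to 10.8 ± 0.356 CPM (-0.62). ACTN4, an actinin, rose from 223 ± 4.92 to 265 ± 5.69 CPM (0.25) and PXN, paxillin, from 477 ± 15.4 to 523 ± 7.52 CPM (0.13). Genes for collagen folding and export had 4 higher and 3 lower of 14. SERPINH1, the collagen chaperone HSP47, rose by 0.33 on the log2 scale (SE 0.042, adjusted p = 3.21e-05, edgeR) and P4HA1, a prolyl hydroxylase subunit, by 0.39, while its relative P4HA2 had a log2 fold change of -0.29.

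The dystroglycan list, which holds the enzymes that build the laminin-binding sugar of dystroglycan and its intracellular partners, had 4 higher and 5 lower of 18. DMD, the gene of dystrophin, rose from 26.5 ± 0.975 to 31.0 ± 1.63 CPM (SD, n = 3 each). LARGE2, a glycosyltransferase that extends this sugar, was called lower at an adjusted p of 0.0441 (edgeR) and lost the call in several of the settings tried. In the list of tetraspanins and CD44 partners, 1 of 16 was higher, CD9, from 406 ± 10.1 to 485 ± 7.33 CPM, and 7 were lower. HAS2, a synthase of the CD44 ligand hyaluronan, fell from 24.1 ± 1.89 to 15.02 ± 0.956 CPM (log2 fold change -0.68, adjusted p = 1.12e-05, edgeR). PTGFRN, a tetraspanin partner, fell from 150 ± 2.22 to 129 ± 0.744 CPM.

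Of the sums of cell type markers, only that of the epithelial markers did not overlap between the groups. The summed level of 9 epithelial markers was 4230 to 4760 CPM in the shNC samples and 3780 to 3930 CPM in the shMSLN samples. The sum holds the basal and squamous markers KRT5, KRT6A, KRT14, KRT17 and TP63, and also KRT8, KRT18, EPCAM and CDH1. Of the 9, 2 were higher (KRT17 and CDH1) and 4 lower (KRT5, KRT6A, TP63 and KRT18), with a log2 fold change of -0.38 for KRT5. The sum of 7 fibroblast markers was 62.9 to 66.7 and 65.2 to 73.3 CPM, most of it COL1A1 and THY1, with PDGFRA at 1.02 CPM or less in every sample. The sum of 4 endothelial markers was 7.32 to 8.81 and 8.76 to 9.94 CPM, that of 3 immune markers 25.2 to 28.0 and 23.8 to 26.5 CPM, and the hepatocyte marker ALB was at 0.0561 CPM or less. The part of these markers in the results was not tested, and in bulk RNA fewer cells of a type and less RNA per cell cannot be told apart. The basement membrane and integrin genes are long, with 25 of the 34 in the longest of 5 equal bins of tested genes, whose median log2 fold change was -0.028 with 15.9% higher and 24.5% lower. With shMSLN replicate 1 as the only knockdown sample, so that replicates 2 and 3 did not enter, all 20 called genes kept their direction and 13 were still called.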

How the data were processed

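The table covered 3 shNC and 3 shMSLN samples of HCC1806-HM3 cells. The authors deposited estimated counts per gene, not scaled to library size, with TPM values scaled for depth and gene length and FPKM values. The FPKM values were used here only to derive gene lengths, from the shNC samples, for the length bins and the length trend. Library preparation used oligo(dT) enrichment, and the submitters' processing notes name GRCh38.p13. The aligner, quantifier and annotation are not given in the sources used here. The shMSLN columns lacked values for 1287 of the 17860 genes, 0 of them among the 34, and these genes were left out of the test.

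Estimated counts were rounded to whole numbers and compared in R 4.3.3 by edgeR 4.0.16 (TMM, filterByExpr with a minimum count of 10, glmQLFit and glmQLFTest, no covariate) over 14552 genes. Tests were checked on simulated data. SE is the log2 fold change divided by the square root of F, and 95% intervals are 1.96 SE on each side. Intervals cover the spread between these samples only. No pair of samples of a group differed by as little as sampling noise (chi-square per degree of freedom 1.27 to 5.86), so each was counted as 1 sample. This does not show that they came from separate cultures. The lowest value, 1.27, was that of shMSLN replicates 2 and 3, and the other pairs were at 2.25 to 5.86. These 2 samples share the whole-number form and each lacked values for 695 genes, against 1103 in shMSLN replicate 1. They may therefore be closer to technical repeats than the other samples are. Samples with the same number deviated together from their group means (correlations 0.336, 0.107 and 0.140 over 11751 genes with a mean above 5 CPM). The pairing comes from these correlations and not from the labels, and shNC replicate 2 correlated more with shMSLN replicate 3 (0.161). A fit with the number as a block is given where it changed a call.

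Alternatives were RLE and upper-quartile scaling, other filters, DESeq2 1.42.0, limma-voom and limma 3.58.1 on log2(TPM + 1), robust estimation, samples left out and missing values as 0. Removal of the trend of each sample on gene length was chosen after seeing the data. The 34 genes, their classes, the other lists and the naming rule were chosen with earlier results of these data known. The rule took at most 2 called genes in each direction per list, those with the largest change and a mean of at least 5 CPM, and not every gene it covers is reported here. Gene coordinates were read from GENCODE release 29 (GRCh38), and the authors may have used another annotation. Promoter windows are from RefSeq on GRCh38.p14, and 28 of the 34 genes matched.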

Additional observations from a re-analysis of the deposited data

How the results depend on the processing

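Of the 20 called genes, all kept their direction in the 18 other settings, 13 were called in every setting and 18 in every setting but that with shMSLN replicate 1 as the lone knockdown sample, which assumes that this sample varies like the shNC samples. The exceptions were LAMA5 and ITGAV. The cause of these changes was not tested, also for the setting with the lone sample. In that setting 8 of the 34 genes were higher, 16 and 14 of the other pathway genes were higher and lower, and over all genes 894 were higher and 937 lower. With limma on log2(TPM + 1), 1690 of all genes were lower. With the replicate number as a block, 5789 genes were called instead of 5032. The block added LAMA4 (log2 fold change 0.098), HSPG2 (0.097) and COL17A1 (-0.084) and changed no other call among the 34.

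Leaving out 1 sample gave 12 to 19 higher and 7 or 8 lower of the 34, with 19 and 8 without shNC replicate 1, where LAMA4, COL4A2, COL7A1, ITGB4, CD151, DAG1 and COL17A1 were added. Over all genes it gave 1775 to 2570 higher and 1920 to 2829 lower, and among the other pathway genes 21 to 33 higher and 21 to 31 lower. The median log2 fold change ranged from 0.065 to 0.126 for the 34 genes and from 0.211 to 0.275 for laminins. Upper-quartile scaling moved the median of all genes to 0.031, and gave medians of 0.125 for the 34 genes, 0.270 for laminins, -0.087 for integrin alpha subunits and -0.075 for CD44 and DAG1. With limma on log2(TPM + 1) the last pair of classes had -0.079 and -0.072. With the length trend removed they had -0.088 and -0.082, and laminins 0.273. With shMSLN replicate 1 alone the medians were 0.127 for the 34 genes, 0.281 for laminins and 0.137 for linkers. Uncalled genes near 0 changed sign: ITGB6, which ranged from -0.040 without shNC replicate 1 to 0.056 without shNC replicate 2 and was -0.0052 without shMSLN replicate 2 and -0.0046 with shMSLN replicate 1 alone, and PLEC, whose lowest value was -0.023, when shMSLN replicate 1 was left out, and whose highest was 0.041, when shNC replicate 1 was, and which was at -0.015 without shNC replicate 2 and -0.0055 without shNC replicate 3.

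At 17507837 to 18512135 counts per sample, genes such as ITGB3 and ITGA1 have too few reads for small differences to be detectable, and differences in splice form cannot be seen.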
